A study of Mus musculus with 37 samples.

Results

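This account describes how the tailbud transcriptome of Smchd1 maternal-deletion embryos (Smchd1 matΔ, labelled mat del) differed between 6 to 7 and 10 to 11 somites. The members were taken by their labels. They comprised 7 embryos with 6 or 7 somites and 5 embryos with 10 or 11 somites, thus 12 of the 37 tailbud libraries in the series. Another 4 mat del embryos with 8 or 9 somites entered no main comparison and were used only to see where the middle of the interval lay.

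All embryos were C57BL/6/Cast F1 at E8 to E8.5. The mat del embryos were Smchd1 del/+ offspring of Smchd1 del/fl mothers carrying MMTV-Cre, a mammary tumour virus promoter driving a recombinase that is also active in the growing oocyte, crossed to Cast males, so that the egg lacked a functional Smchd1 allele and the embryo kept the paternal copy. Control embryos were Smchd1 fl/+ from mothers without the transgene. SMCHD1 is a chromatin protein of the structural maintenance of chromosomes family, known for gene silencing on the inactive X chromosome and at imprinted and Hox genes. Because the mat del embryos were also heterozygous, loss of the maternal supply and heterozygosity cannot be told apart in them. Each library came from the tailbud of 1 embryo, cut at a set distance behind the last segmented somite to keep somite tissue out. The 6 to 7 somite mat del group held 5 females and 2 males, the 10 to 11 somite group 2 females and 3 males, and the 4 embryos between them were all female. The same windows held 8 and 7 control embryos.

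The tailbud carries the neuromesodermal progenitors and the caudal presomitic mesoderm, from which spinal cord and somites are laid down from head to tail. Wnt, FGF and Cdx factors maintain the progenitors, retinoic acid from the somites opposes them, and Hox genes are switched on in the order in which they lie along their clusters, so that the cells leaving the tailbud later carry a more posterior Hox code. Somite number is the usual clock of this process, and the question addressed here was which genes moved along it within the mat del genotype.

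Total counts ranged from 916444 to 30156555 in the 12 mat del libraries. Smchd1 was read at 71.9 to 113 CPM, a count scaled to the size of its library, at 6 to 7 somites and 76.3 to 107 CPM at 10 to 11 somites, against 105 to 172 CPM and 105 to 184 CPM in the control embryos, so the mat del levels lay mostly below the control levels with some overlap. It did not pass the test between the windows (log2 fold change 0.06 ± 0.11 (SE), adjusted p = 0.914). The 6 somite group held the libraries that stood apart. Replicate 3 was the shallowest, and replicates 1 and 2 carried 2.77% and 1.82% of their counts in the ribosomal RNA locus Gm42418 and CT010467.1, against 0.211% to 1.28% in the other 10 libraries. Results are therefore also given without 6 somite replicates 1 to 3. The 10 tailbud markers (T, Wnt3a, Fgf8, Tbx6, Msgn1, Cyp26a1, Nkx1-2, Cdx2, Cdx4 and Hes7) were all detected in both windows, with a summed level of 1409 to 2048 CPM at 6 to 7 somites and 1496 to 2099.7 CPM at 10 to 11 somites.

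Between 6 to 7 and 10 to 11 somites, 95 genes rose and 57 fell in mat del tailbuds out of 15543 tested (edgeR quasi-likelihood test with sex as a covariate, Benjamini-Hochberg adjusted p under 0.05), that is 0.611% and 0.367% of the genes tested. These shares are the background for the counts of called list members below. Positive log2 fold changes were found in 7614 of the 15543 genes. The median log2 fold change of all genes was -0.01, a value that the scaling of the libraries sets close to 0. Rising genes included 7 Hox genes of paralogue groups 6 to 9, enzymes of cholesterol synthesis, and a few endothelial and blood genes, with a median log2 fold change of 0.79. Falling genes included Cdx1, Wnt8a, the Nodal pathway genes Cfc1 and Foxh1 and the pluripotency factor Pou5f1, with a median of -0.98. Some called genes overlap on the genome, for instance Gm38287 with Nrarp and Gm48342 with Hmgcs1. Such genes can share reads where strand is ignored, and whether the deposited counts kept strand is not given. The 152 calls are therefore not to be taken as separate loci. In 129 of the 152 genes the CPM ranges of the 7 early and 5 late embryos did not overlap, against 2.77% of all genes tested. The 152 genes were chosen for a difference between these same embryos, so their separation follows largely from the choice and adds no evidence. Without 6 somite replicates 1 to 3, 148 genes rose and 111 fell (1.69% of 15351 tested), and 130 of the 151 original calls still tested were kept, and all 151 had the same direction. Leaving out 1 embryo at a time gave 41 to 355 genes. The counts that moved most were those without 7 somite replicate 1 (95 genes), 10 somite replicate 2 (355), 10 somite replicate 3 (90) and 11 somite replicate 2 (41), and all 41 of the last were among the 152.

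The 4 embryos with 8 or 9 somites had no part in choosing these genes. Their mean CPM lay between those of the early and late embryos in 150 of the 152 genes. Over all genes tested the share was 47.9%. The 152 genes were chosen for a gap between early and late embryos, which makes a mean between them more likely. The shares are therefore not alike, and the count adds no evidence of a graded change.

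**Figure D1:**
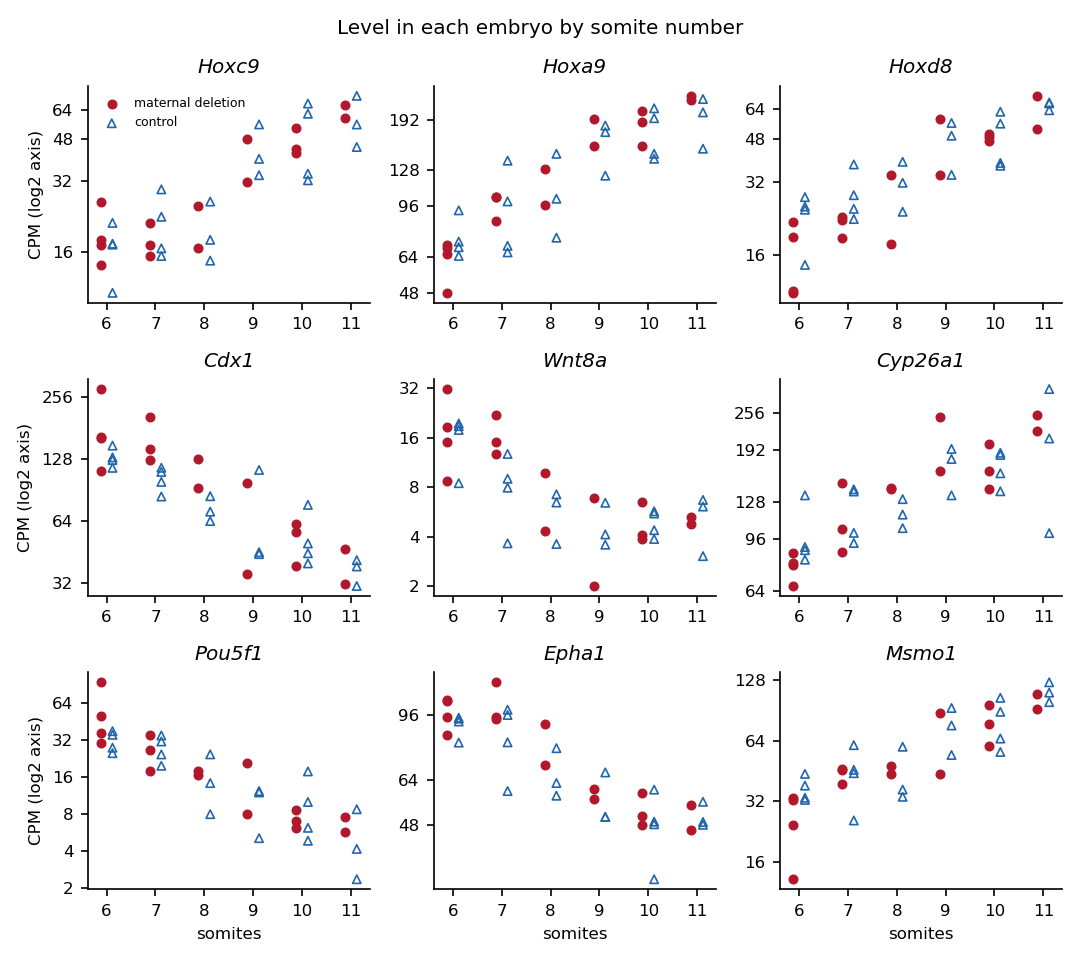
CPM on a log2 axis (vertical) of 9 genes in every embryo from 6 to 11 somites (horizontal), filled circles for mat del and open triangles for control embryos. In mat del embryos Hoxc9, Hoxa9, Hoxd8, Cyp26a1 and Msmo1 were higher, and Cdx1, Wnt8a, Pou5f1 and Epha1 lower, at 10 to 11 than at 6 to 7 somites, and for all but Cyp26a1 the 2 windows did not overlap.

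The Hox genes encode the homeodomain transcription factors that give each axial level its identity, and 3 of them had the smallest p-values of all rising genes. Of the 15 measured genes of paralogue groups 5 to 9, 7 rose and none fell, against 0.611% rising and 0.367% falling over all genes tested. The median log2 fold change was 0.51 for groups 5 to 9 and 0.12 for groups 1 to 4. Without 6 somite replicates 1 to 3 the 5 to 9 group kept 6 rising genes (median 0.43).

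Hoxc9, a thoracic-level gene at chr15:102976439-102985099 (GRCm38), was read from 14.1 to 26.1 CPM (median 17.1) at 6 to 7 somites. In the late embryos, in the order 10 somite replicates 1 to 3 and then 11 somite replicates 1 and 2, it was read at 53.5, 43.7, 42.1, 59.2 and 67.0 CPM. The lowest late embryo was well above the highest early embryo, and the log2 fold change was 1.58 ± 0.16 (SE, adjusted p = 0.000315, edgeR). Hoxa9 rose from between 47.9 and 104 CPM to 206, 156, 189, 233 and 225 CPM in the same order (log2 fold change 1.30 ± 0.15, adjusted p = 0.000635). Hoxd8 rose from between 11.2 and 23.0 CPM to 50.3, 47.0, 49.0, 52.9 and 72.3 CPM (log2 fold change 1.59 ± 0.19, adjusted p = 0.00081), with 11 somite replicate 2 the highest embryo by a clear gap. Hoxc8 rose from between 118 and 162 CPM to between 219.8 and 281 CPM, a smaller change (log2 fold change 0.84 ± 0.09, adjusted p = 0.000635). None of these 4 genes overlapped between the windows, and all kept their call when any single embryo was left out (highest adjusted p 0.0101 for Hoxd8).

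Hoxc6 rose from between 21.6 and 49.8 CPM to between 60.4 and 85.3 CPM (log2 fold change 1.09 ± 0.17, adjusted p = 0.00396). The remaining rising members were nearer the threshold. Hoxd9 rose from between 14.2 and 34.8 CPM to between 39.3 and 64.1 CPM (log2 fold change 0.85 ± 0.18, adjusted p = 0.0325). It lost its call without 7 somite replicate 1 or 2, 10 somite replicate 1, or 11 somite replicate 1 or 2 (adjusted p up to 0.294). Hoxa7 went from between 127 and 189 CPM to between 176 and 248 CPM, with overlapping ranges (log2 fold change 0.51 ± 0.10, adjusted p = 0.0272). It lost its call without 6 somite replicate 2, 7 somite replicate 2, 10 somite replicate 3, or 11 somite replicate 1 or 2 (adjusted p up to 0.239), and also without 6 somite replicates 1 to 3 (log2 fold change 0.43, adjusted p = 0.073).

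In the HoxB cluster none of the 9 tested genes passed, and their log2 fold changes ran from -0.40 for Hoxb1 to 0.26 for Hoxb4. Hoxb1 had ranges of 68.5 to 99.9 CPM and 56.6 to 67.5 CPM that did not overlap, and it did not pass the test (log2 fold change -0.40 ± 0.09, adjusted p = 0.0637) but did without 7 somite replicate 3 (adjusted p = 0.0397). Hoxb9, the paralogue of Hoxa9, Hoxc9 and Hoxd9, had the ranges 236 to 398 CPM and 254 to 405 CPM (log2 fold change -0.11 ± 0.14, adjusted p = 0.86). On the per-length scale of the deposited log2 RPKM values, Hoxb9 was the highest of the 4 in both windows, with means of 6.96 ± 0.30 (SD, n = 7) and 6.87 ± 0.31 (SD, n = 5). Hoxa9 went from 3.71 ± 0.44 to 5.13 ± 0.22, Hoxd9 from 3.54 ± 0.47 to 4.53 ± 0.31 and Hoxc9 from 2.85 ± 0.29 to 4.39 ± 0.28 log2 RPKM, so the order of the 4 paralogues by mean level was Hoxb9, Hoxa9, Hoxd9, Hoxc9 at both ends and the distance between the first and the last narrowed. Hoxa9 and Hoxd9 early, and Hoxd9 and Hoxc9 late, differed by less than their SD. The difference in change between clusters was not tested.

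Paralogue groups 10 to 13, which pattern the lumbar to caudal skeleton, held 12 genes, of which 8 passed the filter on low counts and none passed the test. Their log2 fold changes ran from 0.00 for Hoxa11 to 1.98 for Hoxc10, with a median of 1.11. A gene that passed the filter only through its late embryos would have to be higher there, so this median is a description of the genes that were readable. Hoxc10 had the ranges 0.519 to 11.98 CPM and 4.49 to 17.6 CPM (log2 fold change 1.98 ± 0.49, adjusted p = 0.0736), the high early value coming from 6 somite replicate 3. Hoxd10 was at 0 to 1.74 CPM and 1.89 to 3.83 CPM, without overlap (adjusted p = 0.16), and Hoxd13 at 1.31 to 5.90 CPM and 3.38 to 11.7 CPM (adjusted p = 0.201). Hoxc10 passed without 6 somite replicate 3, 10 somite replicate 2 or 10 somite replicate 3 (adjusted p = 0.0264, 0.0308 and 0.0345) and in the control embryos (adjusted p = 0.028). Hoxd13 passed without 10 somite replicate 2 (adjusted p = 0.044). With DESeq2, Hoxc10 and Hoxd10 passed (adjusted p = 0.0037 and 0.0251).

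**Figure D2:**
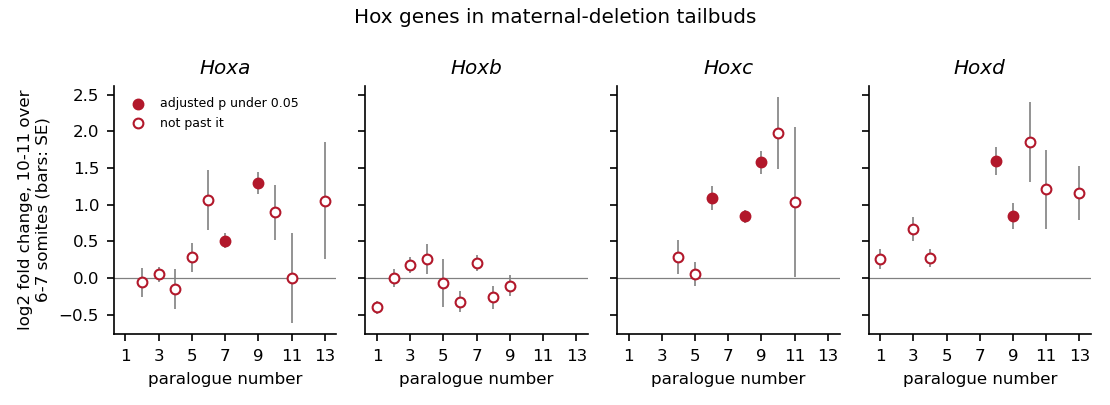
Log2 fold change of 10 to 11 over 6 to 7 somites in mat del tailbuds (vertical, bars are SE) for 34 tested Hox genes by paralogue number (horizontal) in the 4 clusters, filled where adjusted p was under 0.05. Hoxa9, Hoxc9 and Hoxd8 are the highest filled points, and the 9 HoxB genes lie between -0.40 (Hoxb1) and 0.26 (Hoxb4), none of them filled.

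Caudal-type homeobox genes act upstream of Hox genes and keep the trunk growing. Cdx1 was read from 112 to 280.0 CPM (median 162) at 6 to 7 somites and at 56.8, 38.6, 62.0, 47.0 and 31.7 CPM at 10 to 11 somites, with no overlap (log2 fold change -1.78 ± 0.23, adjusted p = 0.00121). The embryos with 8 or 9 somites spanned the gap at 35.4 to 129 CPM. Cdx2 and Cdx4, its paralogues, did not pass the test, with ranges of 289.8 to 408 CPM and 277 to 391 CPM for Cdx2 (log2 fold change -0.01 ± 0.11, adjusted p = 0.997) and a log2 fold change of 0.14 ± 0.15 for Cdx4 (adjusted p = 0.815). Gdf11, a secreted factor that sets the switch from trunk to tail, rose from between 33.1 and 71.1 CPM to between 80.2 and 107 CPM without overlap (log2 fold change 0.87 ± 0.14, adjusted p = 0.00489, and 0.0573 without 11 somite replicate 2). The RNA-binding proteins Lin28a and Lin28b, which act in the timing of axis elongation, did not pass (log2 fold changes -0.04 ± 0.08 and -0.12 ± 0.18). Over the whole list of 11 timing genes, 1 rose and 1 fell, with a median of 0.13.

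Some genes of the receding primitive streak and of the Nodal pathway fell. Nodal signalling drives gastrulation and then fixes left and right. Cfc1, its EGF-CFC coreceptor Cryptic, was read from 5.72 to 14.7 CPM (median 8.71) at 6 to 7 somites and at 2.002, 0.911, 1.05, 2.13 and 0.989 CPM later, the largest fall among the 10 falling genes with the smallest p (log2 fold change -2.64 ± 0.36, adjusted p = 0.00199). Foxh1, the DNA-binding partner of the Smad proteins in this pathway, was read from 17.4 to 35.4 CPM (median 20.96) and then at 6.66, 7.35, 5.82, 6.18 and 3.96 CPM (log2 fold change -1.89 ± 0.23, adjusted p = 0.00089). Both sets of ranges were apart, and leaving out any 1 embryo kept both calls. These were 2 of the 9 tested genes of the list of 12, and no member rose. Nodal itself was near the detection limit at 0.616 to 4.68 CPM and 0.309 to 1.05 CPM (adjusted p = 0.552). Lefty2, a Nodal inhibitor, had the ranges 0 to 32.3 CPM and 0.0955 to 1.79 CPM (adjusted p = 0.52), its 3 highest values lying in 6 somite replicates 1 to 3.

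Of 11 tested streak and progenitor genes, 2 fell and none rose, against 0.367% falling and 0.611% rising over all genes tested. Epha1, an ephrin receptor whose RNA is found in the primitive streak, gave the smallest p of the whole table. It was read from 84.6 to 118 CPM (median 95.1) at 6 to 7 somites and at 58.7, 48.01, 50.8, 54.5 and 46.6 CPM at 10 to 11 somites (log2 fold change -0.98 ± 0.09, adjusted p = 0.000315), and stayed between -1.03 and -0.92 over the 12 fits that each left out 1 embryo. Nkx1-2, a marker of neuromesodermal progenitors and the preneural tube, fell from between 203 and 286 CPM to between 147 and 161 CPM (log2 fold change -0.58 ± 0.09, adjusted p = 0.00446). The defining genes of the progenitor pool, T (Brachyury) and Sox2, did not pass (log2 fold changes 0.12 ± 0.14 and -0.44 ± 0.19). T had the ranges 169 to 312 CPM and 204 to 315 CPM.

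Pou5f1, which encodes the pluripotency factor OCT4 and is switched off in the caudal embryo at about this time, was read from 17.9 to 94.9 CPM (median 35.4) at 6 to 7 somites. Later it was read at 7.05, 6.25, 8.59, 5.75 and 7.54 CPM, and no late embryo reached the lowest early one (log2 fold change -2.25 ± 0.31, adjusted p = 0.00199). The highest early value came from 6 somite replicate 1. Without 6 somite replicates 1 to 3 the log2 fold change was -1.90 ± 0.14 (adjusted p = 0.000654). Nr6a1, an orphan nuclear receptor known to repress Pou5f1, fell as well, from between 710.4 and 931 CPM to between 399 and 586 CPM (log2 fold change -0.87 ± 0.10, adjusted p = 0.000791). The other 10 tested germ cell and pluripotency genes did not pass. Trh, the thyrotropin-releasing hormone gene and the 1 called gene of the hindgut list, fell from between 6.52 and 19.2 CPM to between 1.56 and 5.06 CPM (log2 fold change -1.91 ± 0.30, adjusted p = 0.00433).

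Among 18 Wnt genes, 2 rose and 1 fell, against 0.611% rising and 0.367% falling over all genes tested. Wnt8a, a ligand of the streak, was read from 8.71 to 31.6 CPM (median 15.1) early and at 3.87, 4.10, 6.49, 4.76 and 5.26 CPM late, without overlap (log2 fold change -1.75 ± 0.24, adjusted p = 0.00237). Dkk1, a secreted inhibitor of canonical Wnt signalling, rose from between 14.7 and 31.8 CPM to between 39.5 and 62.9 CPM (log2 fold change 1.07 ± 0.17, adjusted p = 0.00563, and 0.0585 without 11 somite replicate 2). Wnt5a, the ligand of convergent extension, rose from between 111 and 191.7 CPM to between 196 and 259 CPM (log2 fold change 0.59 ± 0.12, adjusted p = 0.0338). The Wnt5a call was lost without 6 somite replicate 4, 7 somite replicate 1, 10 somite replicate 1 or 3, or 11 somite replicate 1 or 2 (adjusted p up to 0.262). Wnt3a, the ligand that maintains the progenitors, and the feedback targets Axin2 and Lef1 did not pass, with log2 fold changes of -0.14 ± 0.15, -0.34 ± 0.13 and -0.16 ± 0.13.

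FGF and retinoic acid counteract each other in the tailbud. Of the 14 tested genes of the FGF list, Etv4, an ETS factor induced by FGF, was the 1 that passed. It fell from between 119 and 179 CPM to between 85.4 and 108 CPM (log2 fold change -0.64 ± 0.10, adjusted p = 0.00482, and 0.0538 without 11 somite replicate 2). Fgf15, an FGF ligand outside the list and named after its values were seen, fell from between 20.7 and 33.3 CPM to between 11.7 and 17.1 CPM (log2 fold change -0.96 ± 0.14, adjusted p = 0.00284, and 0.00366 without 6 somite replicates 1 to 3). Fgf8 had the ranges 27.6 to 49.98 CPM and 31.3 to 54.2 CPM (adjusted p = 0.968). Cyp26a1, the enzyme that degrades retinoic acid in the tail, rose from between 66.3 and 148 CPM to 162, 141, 202, 251 and 222 CPM (log2 fold change 1.02 ± 0.17, adjusted p = 0.00626). The windows overlapped only through 7 somite replicate 1, the highest early embryo, and 10 somite replicate 2, the lowest late one. Its adjusted p was 0.0658 without 11 somite replicate 2 and 0.0514 without 6 somite replicates 1 to 3. Rxrg, a retinoid X receptor, fell from between 5.45 and 11.3 CPM to between 1.11 and 3.06 CPM (log2 fold change -2.14 ± 0.30, adjusted p = 0.00245). Aldh1a2, which makes retinoic acid in somites and presomitic mesoderm, had a wide early range of 3.27 to 117 CPM and a late range of 3.84 to 18.4 CPM (log2 fold change -1.10 ± 0.56, adjusted p = 0.533).

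In the Notch list, 2 of 14 genes rose and none fell, against 0.611% rising and 0.367% falling over all genes tested. Both are genes that Notch induces. Nrarp, a feedback inhibitor of the pathway, was read from 38.5 to 59.9 CPM (median 45.8) early and at 65.8, 87.8, 98.3, 104 and 98.4 CPM late (log2 fold change 0.90 ± 0.13, adjusted p = 0.00284). Hes1, a repressor of neural differentiation, rose from between 26.1 and 44.9 CPM to between 48.2 and 68.5 CPM (log2 fold change 0.68 ± 0.13, adjusted p = 0.018), with no overlap, but lost its call without 7 somite replicate 1 or 11 somite replicate 2 (adjusted p up to 0.239). The oscillating clock genes Hes7 and Lfng, whose level in a single embryo depends on the phase at dissection, did not pass, with ranges of 26.9 to 46.4 CPM and 21.2 to 40.6 CPM for Hes7. No gene of the presomitic mesoderm list (12 tested) and none of the 16 BMP genes passed. Tbx6 and Msgn1, the factors that define presomitic mesoderm, had log2 fold changes of -0.10 ± 0.17 and 0.03 ± 0.14.

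The neurofilament genes Nefl and Nefm were the 2 called genes among 13 tested neural tube genes, and both fell. Nefm fell from between 17.4 and 32.6 CPM to between 8.78 and 13.5 CPM (log2 fold change -1.02 ± 0.19, adjusted p = 0.0149) and Nefl from between 14.9 and 21.6 CPM to between 8.47 and 12.4 CPM (log2 fold change -0.77 ± 0.16, adjusted p = 0.0297). The genes are neighbours that overlap on opposite strands, and whether the deposited counts separate the strands is not given. They are therefore not to be taken as independent of each other. Nefm lost its call without 7 somite replicate 1 or 11 somite replicate 2 (adjusted p up to 0.146), and Nefl without 6 somite replicate 4, 7 somite replicate 1 or 2, 10 somite replicate 1 or 11 somite replicate 2 (up to 0.239).

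Outside the patterning genes, cholesterol synthesis was the list with the most called genes. This pathway builds cholesterol from acetyl-CoA and is switched on by the SREBP-2 factor when sterols in the membrane of the endoplasmic reticulum run low. Of 22 genes for synthesis, uptake and sterol sensing, all tested, 13 rose and none fell, and 21 had positive log2 fold changes, with a median of 0.63 against -0.01 for all genes. Without 6 somite replicates 1 to 3, 11 rose (median 0.57). The summed level of the list was 1185 to 1542 CPM at 6 to 7 somites, 1464 to 2101 CPM at 8 to 9 somites and 1759 to 2410 CPM at 10 to 11 somites, and the first and last ranges did not overlap.

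Msmo1, the sterol C4-methyl oxidase, was read from 13.1 to 46.1 CPM (median 33.3) early. Late it was read at 60.6, 77.7, 96.8, 91.7 and 110.0 CPM, with every late embryo above every early one (log2 fold change 1.29 ± 0.20, adjusted p = 0.00369). Insig1, the anchor that holds SREBP in the endoplasmic reticulum and is itself an SREBP target, was read from 15.7 to 30.6 CPM (median 23.4) and then at 47.1, 52.8, 68.9, 54.9 and 68.9 CPM (log2 fold change 1.27 ± 0.15, adjusted p = 0.000825). Hmgcs1, the HMG-CoA synthase at the start of the pathway, rose from between 142 and 206 CPM to between 233 and 382 CPM (log2 fold change 0.90 ± 0.13, adjusted p = 0.00266). Fdps, farnesyl diphosphate synthase, rose from between 42.5 and 64.5 CPM to between 78.7 and 121 CPM (log2 fold change 0.90 ± 0.13, adjusted p = 0.00243), and Cyp51, lanosterol demethylase, from between 45.8 and 94.8 CPM to between 123 and 185 CPM (log2 fold change 0.94 ± 0.14, adjusted p = 0.00266). These 5 genes kept their calls whichever embryo was left out. Idi1 and Sqle also rose, and lost the call only without 11 somite replicate 2 (adjusted p 0.0732 and 0.0568).

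Weaker members were Lss, Fdft1, Stard4 and Srebf2, the gene of the activator itself, with log2 fold changes of 0.68, 0.68, 0.55 and 0.46 and adjusted p between 0.0274 (Lss) and 0.0418 (Srebf2). Each of them lost its call in 5 to 8 of the 12 fits that left out 1 embryo, 11 somite replicate 2 being among them each time, and Lss and Stard4 also overlapped between the windows and did not pass without 6 somite replicates 1 to 3 (adjusted p = 0.0785 and 0.068). Dhcr7, which acts at the end of the pathway, did not pass (adjusted p = 0.052) but passed in 10 of 23 alternative fits. Mvk, mevalonate kinase, had overlapping ranges of 24.0 to 35.2 CPM and 28.8 to 48.2 CPM.

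**Figure D3:**
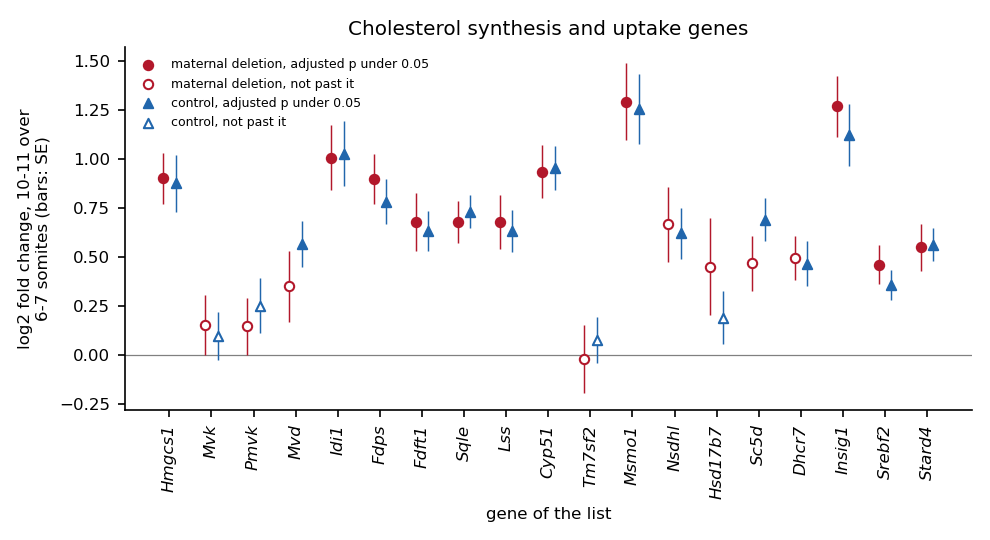
Log2 fold change of 10 to 11 over 6 to 7 somites (vertical, bars are SE) for 19 genes of the cholesterol list (horizontal, in the order of the list), circles for mat del and triangles for control embryos, filled where adjusted p was under 0.05. In mat del embryos 11 of these are filled, with Msmo1 and Insig1 highest, and 15 are filled in control embryos. Over all genes tested, 95 rose in mat del and 337 in control embryos.

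The promoters of the rising cholesterol genes are shown because these genes moved together. RefSeq promoter entries (GRCm38.p6, 250 bases before to 50 after the start) were matched for 7 of the 13. Both strands were searched for the CCAAT box and for the sterol regulatory element TCACNCCAC. All 7 held a CCAAT box, against 37.4% of 32851 promoters, and 1 held the sterol element, against 1.24%. Below are the stretches upstream of the start around the matches, read 5′ to 3′ on the strand of the gene, with CCAAT boxes (ATTGG where the box is on the other strand) and, in Hmgcs1, the sterol element in capitals.
Hmgcs1, chr13:119690101-119690330, plus strand: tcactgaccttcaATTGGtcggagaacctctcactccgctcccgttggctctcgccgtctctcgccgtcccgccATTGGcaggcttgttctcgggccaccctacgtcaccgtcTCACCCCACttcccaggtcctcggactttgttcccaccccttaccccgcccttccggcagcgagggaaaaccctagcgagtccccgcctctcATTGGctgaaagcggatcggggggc
Idi1, chr13:8885541-8885605, plus strand: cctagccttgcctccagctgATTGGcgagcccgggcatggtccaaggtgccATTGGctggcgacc
Lss, chr10:76531523-76531567, plus strand: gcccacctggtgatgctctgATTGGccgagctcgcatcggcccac
Cyp51, chr5:4104702-4104746, minus strand: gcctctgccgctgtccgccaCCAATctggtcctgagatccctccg
Msmo1, chr8:64733609-64733758, minus strand: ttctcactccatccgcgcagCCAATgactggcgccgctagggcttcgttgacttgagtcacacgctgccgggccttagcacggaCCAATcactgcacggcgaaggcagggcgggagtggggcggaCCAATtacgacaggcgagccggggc
Insig1, chr5:28071176-28071220, plus strand: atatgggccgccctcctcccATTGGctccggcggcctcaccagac
Srebf2, chr15:82147114-82147158, plus strand: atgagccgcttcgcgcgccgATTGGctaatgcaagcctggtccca

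Msmo1, the gene of the list with the largest log2 fold change, held 3 CCAAT boxes on its own strand, and Hmgcs1 held 4 on the other strand, of which 1 lay past the start and is not shown. A match is a run of letters and was not tested as a binding site. For 4 of the 7 rising Hox genes a promoter entry was matched, and 1, Hoxa7, held the CDX motif TTTATG, which 11.9% of all promoters hold. It occurred 2 times there and is shown in capitals. A link between this motif and the fall of Cdx1 was not tested.
Hoxa7, chr6:52218721-52218823, minus strand: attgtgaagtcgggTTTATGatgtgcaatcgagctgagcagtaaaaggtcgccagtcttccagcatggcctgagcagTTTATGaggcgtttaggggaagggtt

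Hoxa9, Hoxd8 and Hoxd9 held no TTTATG in this window. The sterol element was not confined to the cholesterol genes, as 1 of the 4 Hox promoters, that of Hoxa9, also held it. A CCAAT box was found in 1 of the 4, that of Hoxd8. Of the called Wnt genes, Dkk1 had an entry and held 2 copies of the TCF/LEF letters CTTTGA, present in 16% of all promoters. The Hoxd8 promoter also held 2 copies of these letters.

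Energy metabolism changed in a few genes. Of 18 glycolysis genes, 2 rose and 1 fell. Slc2a1, the basal glucose transporter GLUT1, fell from between 830.1 and 1114 CPM to between 589 and 701 CPM without overlap (log2 fold change -0.56 ± 0.09, adjusted p = 0.00563, and 0.0672 without 11 somite replicate 2). Pdk1, the kinase that shuts pyruvate out of the mitochondrion, rose from between 44.7 and 95.1 CPM to between 116 and 131 CPM (log2 fold change 0.73 ± 0.12, adjusted p = 0.00748, and 0.0833 without 11 somite replicate 2). Pgk1 had the smallest change (log2 fold change 0.37 ± 0.08, adjusted p = 0.0303) and overlapping ranges, and its call was lost without 7 somite replicate 2 or 3, 10 somite replicate 1 or 3, or 11 somite replicate 2 (adjusted p up to 0.284), and also without 6 somite replicates 1 to 3 (adjusted p = 0.0799). Ldha and Pkm, which act at the end of glycolysis, did not pass (adjusted p = 0.0675 and 0.915). No gene of the mitochondrial genome and none of 91 tested ribosomal protein genes passed.

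Igf2, the imprinted fetal growth factor, was the 1 called gene among the 14 tested members of the list of imprinted growth genes. It rose from between 1095 and 1571 CPM to between 1605 and 1987 CPM without overlap (log2 fold change 0.44 ± 0.10, adjusted p = 0.0389). The adjusted p was 0.11 without 6 somite replicates 1 to 3, and the call was lost without 6 somite replicate 2, 7 somite replicate 1, 10 somite replicate 1 or 3, or 11 somite replicate 2 (up to 0.265). H19, its neighbour, did not pass (log2 fold change 0.28 ± 0.14, adjusted p = 0.526). Peg13, an imprinted noncoding RNA outside the list and named after its values were seen, fell (log2 fold change -0.63 ± 0.13, adjusted p = 0.0241, and 0.0284 without 6 somite replicates 1 to 3). Btg2, an antiproliferative gene and p53 target, rose from between 11.3 and 25.3 CPM to between 36.9 and 49.96 CPM (log2 fold change 1.03 ± 0.20, adjusted p = 0.0172), and lost its call without 7 somite replicate 2 or 11 somite replicate 2 (up to 0.217). The 13 other p53 targets, Cdkn1a and Bax among them, did not pass.

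Several of the genes with the smallest p-values belonged to none of the lists. Igfbp5, a binding protein of insulin-like growth factors, was read from 27.05 to 50.02 CPM (median 39.0) early and at 69.4, 94.3, 75.4, 86.7 and 94.5 CPM late (log2 fold change 1.13 ± 0.13, adjusted p = 0.000716). Tril, a Toll-like receptor accessory protein, rose from between 8.46 and 16.6 CPM to between 30.5 and 41.7 CPM (log2 fold change 1.32 ± 0.16, adjusted p = 0.000825). Txnip, an inhibitor of glucose uptake and thioredoxin, rose from between 17.4 and 24.5 CPM to between 33.2 and 43.8 CPM (log2 fold change 0.79 ± 0.11, adjusted p = 0.00253). Gja5, the gap junction protein connexin 40 of arterial endothelium, rose from between 2.18 and 7.57 CPM to between 12.6 and 17.1 CPM (log2 fold change 1.58 ± 0.21, adjusted p = 0.00157). Among falling genes, Grsf1, an RNA-binding protein of mitochondrial RNA granules, went from between 589 and 756 CPM to between 339 and 457 CPM (log2 fold change -0.80 ± 0.09, adjusted p = 0.000635), and Olfml2a, a secreted olfactomedin-domain protein, from between 18.5 and 33.7 CPM to between 6.11 and 12.3 CPM (log2 fold change -1.52 ± 0.17, adjusted p = 0.000635). Eef2k, the kinase of elongation factor 2, and Plcg2, a phospholipase C, fell by 0.92 and 1.18 on the log2 scale. None of these 8 genes overlapped between the windows. Ranges were apart in 2.77% of all genes tested and in 129 of the 152 called. These genes were named for their small p, so their separation follows largely from the choice. All kept their calls whichever embryo was left out, but Txnip, Eef2k and Plcg2 did not pass in females alone.

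Markers of other cell types moved over the same interval, and in bulk tissue fewer cells of a type and less RNA per cell cannot be told apart. Of 13 endothelial genes, 4 rose and none fell, all 13 had positive log2 fold changes, and the median was 0.70. Among all 15543 genes tested, 0.611% rose and 7614 had positive log2 fold changes. Emcn, endomucin, rose from between 0 and 1.32 CPM to between 2.63 and 5.27 CPM (log2 fold change 2.74 ± 0.48, adjusted p = 0.0096, and 0.0833 without 11 somite replicate 2), and was at 0 in 6 somite replicates 1 and 3. Tal1, a blood and endothelial transcription factor, rose from between 15.3 and 35.3 CPM to between 34.1 and 56.0 CPM with a small overlap, Tie1 from between 4.83 and 14.3 CPM to between 20.6 and 28.5 CPM and Cldn5 from between 1.09 and 4.67 CPM to between 7.60 and 8.76 CPM (adjusted p = 0.0169, 0.0325 and 0.03). Each of these 3 lost its call without 7 somite replicate 1 or 2 or 11 somite replicate 2, Tie1 also without 7 somite replicate 3 or 10 somite replicate 3, and Cldn5 also without 10 somite replicate 1 or 3 (adjusted p up to 0.239 for Tie1 and Cldn5, and 0.162 for Tal1). Kdr, the VEGF receptor, did not pass (log2 fold change 0.02 ± 0.14, adjusted p = 0.981). The summed level was 244 to 378 CPM early and 318 to 437 CPM late, so the sums overlapped.

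Primitive red cells, which arise in the yolk sac, carry embryonic globins. Hbb-y, a beta-like globin whose reads can be shared with similar globins of the cluster, was read from 1.09 to 69.9 CPM (median 5.29) at 6 to 7 somites and at 87.7, 829.4, 127, 1132 and 451 CPM at 10 to 11 somites (log2 fold change 4.93 ± 0.98, adjusted p = 0.0241). Slc4a1, the band 3 anion exchanger of red cells, had the ranges 0 to 8.96 CPM and 9.88 to 83.8 CPM (log2 fold change 4.01 ± 0.84, adjusted p = 0.0333). Both were apart between windows, but neither passed without 6 somite replicates 1 to 3 (adjusted p = 0.0855 and 0.0962). Both also lost the call without 7 somite replicate 1 or 2 or 11 somite replicate 2, and Slc4a1 without 6 somite replicate 2, 7 somite replicate 3 or 11 somite replicate 1 (adjusted p up to 0.239 and 0.262). Of the 15 markers these 2 rose, none fell and 13 had positive log2 fold changes, with a median of 2.29. The embryonic globins Hbb-bh1 and Hba-x did not pass (log2 fold changes 2.605 and 3.19, adjusted p = 0.712 and 0.204), but passed without 6 somite replicate 4, the early embryo with the most globin (log2 fold changes 4.198 and 3.85, adjusted p = 0.0301 and 0.0274). The summed level ran from 14.1 to 3135 CPM early, the top value being 6 somite replicate 4, and from 463 to 4359 CPM late. No marker was at 0 in a whole group. The part of red cells and vessels in the other results was not tested.

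Visceral endoderm genes, which mark the extraembryonic layer next to the tail, had a summed level of 847 to 2579 CPM early and 77.9 to 4422 CPM late. None of the 15 passed, and their median log2 fold change was -0.85. Apob, for instance, was at 199 to 660.2 CPM early and at 3.15, 879, 39.2, 3.62 and 139 CPM late, where 10 somite replicate 2 was the only embryo above the early range. Without that embryo Apob and Apoe fell (log2 fold changes -3.51 and -2.35, adjusted p = 0.00611 and 0.000477), and so did Hnf4a of the hindgut list (log2 fold change -2.99, adjusted p = 0.0023). All 3 also passed with limma voom and in females alone, while Afp did not pass without that embryo (log2 fold change -2.44, adjusted p = 0.0672). Leaving it out gave 151 rising and 204 falling genes in the whole table, whereas leaving out 11 somite replicate 2 gave 19 and 22. No member of the lists of surface ectoderm, allantois, node and notochord, collagen and immediate early genes passed. The collagen list held 15 genes, and Col4a6, a basement membrane collagen outside it and named after its values were seen, fell (log2 fold change -0.44 ± 0.08, adjusted p = 0.0181).

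**Figure D4:**
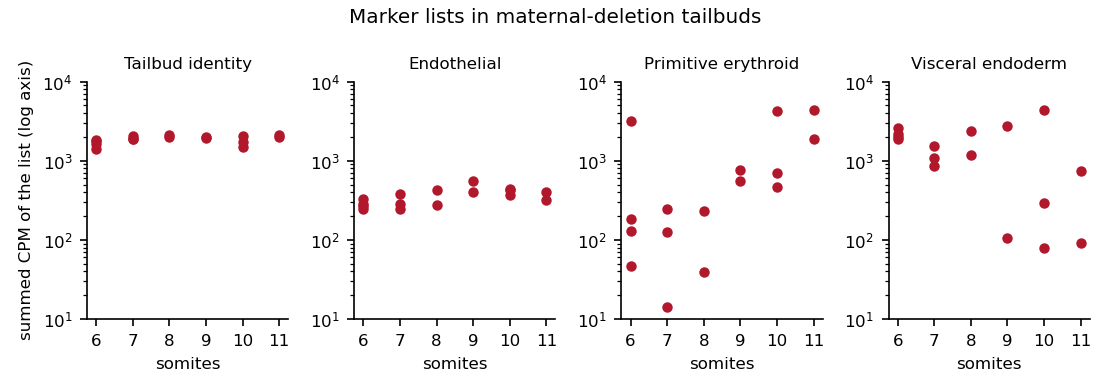
Summed CPM (vertical, log axis) of 4 marker lists in each mat del embryo from 6 to 11 somites (horizontal), 1 point an embryo. Tailbud markers stayed between 1409 and 2141 CPM, endothelial markers between 244 and 548 CPM, while erythroid and visceral endoderm sums ran from 14.1 to 4359 CPM and from 77.9 to 4422 CPM.

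The same windows were compared in the control embryos, which share no library with the mat del embryos. There 565 of 15094 genes passed (337 rising, 228 falling, 3.74%). Leaving out 1 control embryo at a time gave 300 to 2189 genes, the outer counts being without 10 somite replicate 4 and 10 somite replicate 1, and counts of 341 and 326 came without 7 somite replicate 1 and 11 somite replicate 3. Of the 152 genes called in mat del embryos, 150 were tested in the controls, and all 150 had the same direction there, against 73.1% of the 14992 genes tested in both. Of these, 122 also passed the threshold in the controls in the same direction. Across the 14992 genes, which are not independent of each other, Pearson's r of the log2 fold changes was 0.683.

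Hoxc9 had a log2 fold change of 1.51 ± 0.21 in controls, Hoxa9 of 1.14 ± 0.16, Cdx1 of -1.38 ± 0.13, Cfc1 of -2.59 ± 0.25 and Epha1 of -0.85 ± 0.11, and all 5 passed in controls too. Hoxa7 (0.23 ± 0.12, adjusted p = 0.343), Dkk1 (0.83 ± 0.27, adjusted p = 0.106), Slc2a1 (-0.40 ± 0.12, adjusted p = 0.0646) and Tal1 (0.70 ± 0.20, adjusted p = 0.0542) did not. In controls 18 of the 22 cholesterol genes rose, with a median log2 fold change of 0.63, and 6 of the 15 genes of Hox groups 5 to 9 rose, with a median of 0.23. Over all genes tested 337 of 15094 rose in controls, against 95 of 15543 in mat del embryos. The list counts of the genotypes therefore cannot be compared directly.

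Whether a change differed between the genotypes was tested directly as an interaction over the 27 embryos of both. No gene of 15753 passed (edgeR, smallest adjusted p 0.9997). At an unadjusted p under 0.05 there were 268 genes, and DESeq2 also called 0. Among the 152 called genes, 8 had an unadjusted p under 0.05 for the difference. The log2 fold change was larger in size in mat del embryos for 113 of the 150 genes, which is given without a test because the genes were chosen in the mat del embryos. Hoxc9 had a difference of 0.09 ± 0.28 (mat del minus control, unadjusted p = 0.751). A missed threshold does not show that the genotypes changed alike.

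**Figure D5:**
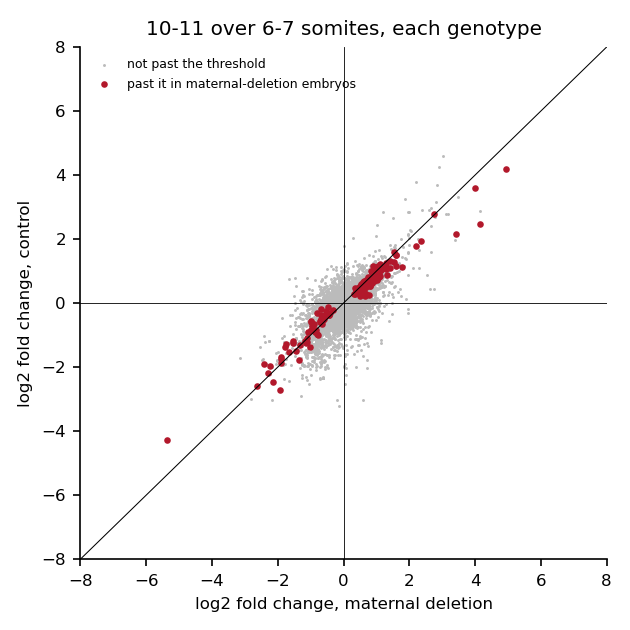
Log2 fold change of 10 to 11 over 6 to 7 somites in mat del (horizontal) and control (vertical) embryos for the 14992 genes tested in both, with the 150 genes past the threshold in mat del embryos in red and the line of equal change drawn. All 150 red points lie in the 2 quadrants of equal sign.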

How the data were processed

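Tailbud RNA was sequenced from 37 single embryos, of which the 16 mat del and 21 wild-type libraries are named by genotype, somite number and replicate. Per the labels and the methods, reads were trimmed with Trim Galore 0.4.4 and aligned to GRCm38.p6 with HISAT2 2.0.5, and the authors deposited raw counts per gene. Libraries were made with one of 2 kits, a stranded and an unstranded one. Which library had which kit, and whether strand was kept in the deposited counts, is not given in the sources used here. A second deposited table held log2 RPKM values of the Hox genes, used for levels between genes only. A table of the authors' own p-values and fold changes was not used.

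Of 35591 rows, 49 with repeated identifiers were dropped, 27 names turned into dates were restored, and 35506 of 35542 identifiers were found in GENCODE M21. Genes were filtered (filterByExpr, minimum count 10), scaled by TMM and tested two-sided with edgeR 4.0.16 (limma 3.58.1, R 4.3.3) by the quasi-likelihood test with sex as covariate and Benjamini-Hochberg adjustment at 0.05. Separate fits were made for mat del and control embryos, and an interaction over both. CPM are TMM-scaled over all 37 libraries. A standard error is the size of the log2 fold change over the square root of F. No 2 libraries of a group agreed within sampling noise (chi-square per degree of freedom at least 5.12). Each library is a separate embryo, though shared litters are not given.

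Named genes were Smchd1, the 10 rising and 10 falling genes with the smallest p among those called, and from each gene list the called members and up to 4 others, leaving out predicted genes and Y-linked genes. A few others are named as chosen after their values were seen. The members, the 30 gene lists and the tests were chosen with earlier results of these data known. The test was checked on simulated counts. At the mat del sizes it recovered 36%, 70%, 66% and 88% of 50 genes changed 1.5, 2, 3 and 4-fold among 15325 genes. For the interaction it recovered 16%, 60%, 72% and 78% among 15606 genes.

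Alternatives were DESeq2 1.42.0 and its size factors, no filter, no sex term, a replicate block, limma voom, females alone, a slope on somite number and leaving out libraries. Promoters were RefSeq entries of 300 bases, those on chromosome 18 left out. Some members of the Hox and cholesterol lists count in the totals but are not reported here by name or drawn.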

Additional observations from a re-analysis of the deposited data

Results flagged for a closer look

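In 23 of 250 groups of mat del embryos (9.2%) 1 embryo stood apart from the rest of its window by Dixon's test. Chance flags about 1 in 20. In 10 somite replicate 2 the visceral endoderm genes Afp (875 CPM, next embryo 151), Apob (879 CPM, next 139) and Apoe (453 CPM, next 91.4) and the endoderm factor gene Hnf4a (73.4 CPM, next 11.7) stood above the other late embryos, and Ldha (3119 CPM, next 3604) below them. In 6 somite replicate 4 the red cell genes Hbb-bh1 (2684 CPM, next 136), Hba-x (287 CPM, next 66.2), Hbb-y (69.9 CPM, next 21.99) and Slc4a1 (8.96 CPM, next 2.28) stood above the other early embryos, as did Hes7 (46.4 CPM, next 34.9).

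The shallowest library, 6 somite replicate 3, held the lowest early values of Cyp51 (45.8 CPM, next 78.6) and Fdft1 (20.7 CPM, next 45.0) and the highest of Axin2 (236 CPM, next 182), Hoxc10 (11.98 CPM, next 3.96) and Tubb3 (30.5 CPM, next 24.2). In 6 somite replicate 1 Pou5f1 (94.9 CPM, next 50.7), Foxh1 (35.4 CPM, next 25.1), H19 (6039.8 CPM, next 4074) and the ribosomal RNA locus CT010467.1 (1323 CPM, next 606) were highest. Late embryos apart from the others were 10 somite replicate 3 for Nr6a1 (586 CPM, next 450.02) and Plcg2 (10.5 CPM, next 8.07), 11 somite replicate 1 for Mvk (48.2 CPM, next 32.3) and 11 somite replicate 2 for Hoxd8 (72.3 CPM, next 52.9). Each embryo was also left out in turn.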

How the results depend on the processing

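The mat del count of 152 genes was 151 with the size factors of DESeq2, 223 without the low-count filter, 520 with DESeq2's own test, 296 without the sex term (191 rising, 105 falling), 883 with limma voom, 92 in females alone (52 of the original calls), 259 without 6 somite replicates 1 to 3, 160 without replicates 1 and 2, 246 with a slope on somite number over 12 embryos and 475 over 16. Leaving out 1 embryo gave 41 to 355. The control count of 565 was 1004 with DESeq2 and 300 to 2189 on leaving out 1 embryo. The interaction gave 0 under each setting. The cause of these shifts was not tested. No mat del call changed sign under any setting run.

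With the replicate block the counts were 167 (127 of the original calls), 449 and 0. Of 15 same-numbered pairs of libraries 5 had a correlation of deviations over 0.1 (r from -0.128 to 0.443, median 0.00817), against 3 of 38 differently numbered pairs (r from -0.443 to 0.200). The main fits did not take the numbers as pairs, and a batch shared by same-numbered libraries was not tested. The mat del group with 11 somites held 2 embryos, whose deviations from their mean are mirror images. Their correlations with any other library are therefore of opposite sign.

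Of 59 called genes under the naming rule, 23 kept their call in all 23 alternatives and 31 in all leave-one-out fits, and 154 of their 1357 values missed the threshold. None reversed. Of the 66 others, 19 passed somewhere, and 98 of their values changed sign without passing. The shallowest library held 916444 counts, and the part of depth in missed calls was not tested.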

Other observations

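Some large falls were in genes of very low level that belong to none of the lists, and they were chosen here after their values were seen. Olig3, a transcription factor of the dorsal neural tube, was at 0.726 to 6.34 CPM in the early mat del embryos and at 0 to 0.325 CPM in the late ones. It counts among the falling genes, but at these levels it could pass the count filter through the early embryos alone, so no p is given. In control embryos Olig3 was at 0 to 2.58 CPM early and 0 to 1.85 CPM late, and it did not pass the count filter there. The difference in change between genotypes did not pass the test for Olig3.

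Dgkb, a diacylglycerol kinase, was at 0 to 0.887 CPM early and 0 to 0.0328 CPM late in mat del embryos, and at 0 to 1.32 CPM and 0 to 0.121 CPM in controls. It too could pass the count filter through the early embryos alone, so no p is given. Csn3, kappa-casein, was at 0 to 5.44 CPM early and at 0 in all 5 late mat del embryos, so it could pass the count filter through the early embryos alone and no p is given, and it was not testable without 6 somite replicates 1 to 3. At such levels the fitted fold change depends on the prior count, so none is given.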
